A study of Mus musculus with 14 samples.

Results

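The mRNA levels of 9 genes of gamma-secretase and of amyloid precursor protein (APP) processing were examined in CD11b+ microglia/macrophages of the injured mouse brain. These were *Psen2*, *Ncstn*, *Aph1a*, *Aph1c* and *Psenen*, which encode subunits of gamma-secretase, *App* and *Aplp2*, which encode its substrates, and *Bace1* and *Adam10*, which encode the sheddases that cut those substrates first. The genes were taken by symbol from a list of the pathway, and all 9 were found among the 33939 genes measured. The cells came from C57BL/6 mice of 8 to 12 weeks, at day 3 after a controlled cortical impact, a traumatic brain injury (TBI) delivered to the cortex of a single side. The ipsilateral (IL) hemisphere holds the lesion and the contralateral (CL) hemisphere does not. Ctrl mice were Cx3cr1-CreER+/- and cKO mice were Cx3cr1-CreER+/-;Nhe1flox/flox, and both had received tamoxifen, so the controls also carried the recombinase and had seen the drug. The recombinase is driven by *Cx3cr1*, a gene of microglia and some other myeloid cells, and CD11b+ cells without it would keep the floxed gene. Ctrl gave 4 libraries of each hemisphere and cKO gave 3 of each, from 8 mice, all males, of which 6 gave both hemispheres. Libraries of uninjured mice were not analysed here.

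Gamma-secretase is an intramembrane protease that cuts the stubs left in the membrane after a sheddase has removed the outer part of a protein. Its catalytic subunit is a presenilin, and presenilin 2 (*Psen2*) is known for its place in late endosomes and lysosomes. Nicastrin (*Ncstn*) receives the shed substrate, an APH-1 protein (*Aph1a*, *Aph1b* or *Aph1c* in the mouse) is the scaffold, and PEN-2 (*Psenen*) activates the complex. When BACE1 cuts APP first, gamma-secretase releases amyloid-beta, whereas a first cut by ADAM10 falls within the amyloid-beta stretch. Notch receptors, CD44 and CSF1R are further substrates, so the protease also serves signaling in myeloid cells.

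The promoters of *Psen2*, *App* and *Aplp2* are shown because these were the genes among the 9 with a change between the hemispheres. Each window holds 250 bases before and 50 bases after the RefSeq start on GRCm38.p6, is written 5' to 3' on the gene's strand, and has the GC box GGGCGG in capitals on either strand. The windows lie at chr1:180256251-180256550, chr16:85173658-85173957 and chr9:31211799-31212098, all on the minus strand.
*Psen2*: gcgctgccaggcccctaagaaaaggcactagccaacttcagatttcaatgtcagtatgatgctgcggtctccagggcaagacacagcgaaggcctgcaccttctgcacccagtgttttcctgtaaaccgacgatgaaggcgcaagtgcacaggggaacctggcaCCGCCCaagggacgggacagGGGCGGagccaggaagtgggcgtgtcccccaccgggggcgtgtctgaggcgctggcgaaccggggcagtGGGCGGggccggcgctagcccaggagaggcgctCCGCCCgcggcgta
*App*: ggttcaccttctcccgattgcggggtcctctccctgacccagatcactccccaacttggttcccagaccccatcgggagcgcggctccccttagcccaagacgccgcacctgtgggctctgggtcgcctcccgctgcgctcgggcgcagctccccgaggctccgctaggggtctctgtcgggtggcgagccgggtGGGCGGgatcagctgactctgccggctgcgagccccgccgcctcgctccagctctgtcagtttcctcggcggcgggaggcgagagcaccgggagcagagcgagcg
*Aplp2*: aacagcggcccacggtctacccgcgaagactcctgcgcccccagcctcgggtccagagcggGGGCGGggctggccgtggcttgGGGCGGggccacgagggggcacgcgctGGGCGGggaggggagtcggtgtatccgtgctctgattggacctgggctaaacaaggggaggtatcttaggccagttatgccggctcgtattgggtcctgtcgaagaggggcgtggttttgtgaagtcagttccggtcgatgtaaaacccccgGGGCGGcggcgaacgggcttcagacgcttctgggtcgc
The *Psen2* window held 4 GC boxes, that of *App* held 1 and that of *Aplp2* held 4, and 35.7% of all 32851 promoters of this length held at least 1. GC content was 65.7% for *Psen2*, 71% for *App* and 67% for *Aplp2*, above the median of 52.7% over all promoters. None of the 3 windows held the AP-1 letters TGANTCA, the STAT letters TTCNNNGAA, the E box CACGTG, the PU.1 letters GAGGAAGT or the TATA box TATAAA, which were found in 7.81%, 8.30%, 7.15%, 3.20% and 13.6% of all promoters on either strand. RefSeq gives *Psen2* a second start, whose window at chr1:180245901-180246200 held no GC box and 1 CACGTG.

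The study also measured *Psen2* by qPCR, and its primers are shown because they mark the exons that assay reads. On GRCm38 the forward primer lies at chr1:180229463-180229485 in exon 9 of the transcript *Psen2*-201 and the reverse primer at chr1:180228912-180228932 in exon 10, both within the coding sequence.
Forward: gaagactcctacgacagttttgg
Reverse: caccaggacgctgtagaagat
Together they span 150 bp in all 5 coding transcripts of the GENCODE M21 annotation. The qPCR values were not analysed here.

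Values are in CPM, reads of a gene scaled so that each library has the same total. Depth was estimated for each library as the total that made most low values whole numbers of reads. It ranged from 12.2 to 41.6 M reads per library with a median of 34.2 M. Markers of microglia (*P2ry12*, *Tmem119*, *Cx3cr1*, *Sall1* and *Siglech*) summed to 9216 to 13358 CPM in Ctrl CL, 4400 to 6009 in Ctrl IL, 9749 to 13126 in cKO CL and 4855 to 5273 in cKO IL. They were thus lower in every IL than in every CL library of the same genotype, and 5 of the 5 were called lower in each genotype. Over all genes tested between hemispheres, 2.97% were called lower and 3.68% higher in Ctrl, and 9.55% and 12.7% in cKO. Markers of infiltrating monocytes summed to 79.4 to 671 CPM in Ctrl CL, 151 to 357 in Ctrl IL, 93.7 to 204 in cKO CL and 196 to 259 in cKO IL, and 3 of the 6 were called higher in IL in each genotype (*Ccr2*, *F10* and *Ms4a4c* in Ctrl, *Plac8*, *F10* and *Ms4a4c* in cKO). The others did not pass, and among them *Chil3* averaged less in IL in both genotypes (236 and 104 CPM in CL and IL of Ctrl, 73.7 and 62.2 CPM in cKO), as did *Ly6c2* in Ctrl (30.4 and 11.6 CPM). Genes of the response to cell dissociation (*Fos*, *Fosb*, *Jun*, *Junb*, *Egr1*, *Dusp1* and *Hspa1a*) summed to 21692 to 30754 CPM in Ctrl CL, 15864 to 18285 in Ctrl IL, 25026 to 36843 in cKO CL and 15609 to 18340 in cKO IL. They were lower in every IL than in every CL library. Of the 7, limma called 0 in Ctrl and 3 lower in cKO, where 2.97% and 9.55% of all genes were called lower. At an unadjusted p under 0.05 there were 2 in Ctrl and 5 in cKO, against 21.2% and 36.6% of all genes. Markers of neutrophils were highest in a Ctrl CL library (436 to 5807 CPM in that group) and at most 1237 CPM in the other groups. Of the 6, 0 were called between hemispheres in Ctrl and 5 were called lower in IL in cKO. At an unadjusted p under 0.05 there were 5 in each genotype, against 21.2% of all genes in Ctrl and 36.6% in cKO. Markers of neurons, cells rich in *App*, summed to at most 20.8 CPM in any library, and *Syt1*, *Rbfox3* and *Gad1* were under 1 CPM in all. Markers of oligodendrocytes summed to 176 to 310 CPM, those of astrocytes to 114 to 213 CPM and those of endothelial cells to 69.5 to 159 CPM. Among them *Gfap*, a filament of reactive astrocytes, rose in Ctrl (9.42 to 33.9 CPM) and cKO (7.81 to 31.1 CPM) and *Slc1a3* fell in both (174 to 73.5 and 156 to 85.0 CPM), while *Mobp*, *Mbp* and *Kdr* rose in cKO. Markers of border-associated macrophages summed to 141 to 713 CPM, and 0 of 5 were called by limma in either genotype. At an unadjusted p under 0.05 there were 3 in Ctrl and 2 in cKO, against 21.2% and 36.6% of all genes. Of these 5 markers, *Pf4* averaged 38.4 and 94.5 CPM in CL and IL of Ctrl and 20.8 and 47.7 CPM in cKO, and *F13a1* 176 and 273 CPM in Ctrl and 97.1 and 209 CPM in cKO. In such bulk samples, fewer cells of a type and less RNA per cell cannot be told apart. The Ctrl libraries differed among themselves by transcript length, and those of mouse 3546 were the farthest toward long genes. Against the other libraries of the group, the log2 level of the upper tercile of 11741 genes by exon length exceeded that of the lower tercile by 0.63 in its IL and 0.55 in its CL library. The same measure was 0.18 in Ctrl CL and -0.015 in Ctrl IL of mouse 3551, -0.39 and -0.33 in Ctrl CL and -0.36 in both Ctrl IL libraries of mice 3541 and 3545, and between -0.053 and 0.053 in the cKO libraries. The Ctrl IL library of mouse 3546 was also the shallowest.

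Per kb of exon, the scale on which levels of different genes can be set side by side, *Adam10* and *Ncstn* were the most abundant of the 9, with medians over the 14 libraries of 77.0 and 74.8 CPM per kb. *Aplp2* (40.3), *App* (36.2) and *Psenen* (31.4 CPM per kb) followed, then *Aph1a* (6.78) and *Psen2* (4.33), and *Aph1c* (1.35) and *Bace1* (1.31 CPM per kb) were lowest. Neighbours in this order overlapped in range over libraries, as *Adam10* (58.2 to 96.9) with *Ncstn* (61.8 to 88.3 CPM per kb) and *Bace1* (0.865 to 2.09) with *Aph1c*, except that all *Ncstn* values lay above all *Aplp2* values (32.5 to 59.1 CPM per kb).  Thus, the alpha-secretase and nicastrin transcripts were abundant in these cells, and those of presenilin 2, APH-1C and the beta-secretase were scarce. Even so, at the estimated depths each *Psen2* value rested on at least 294 reads, and each *Bace1* value on at least 137.

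**Figure D1:**
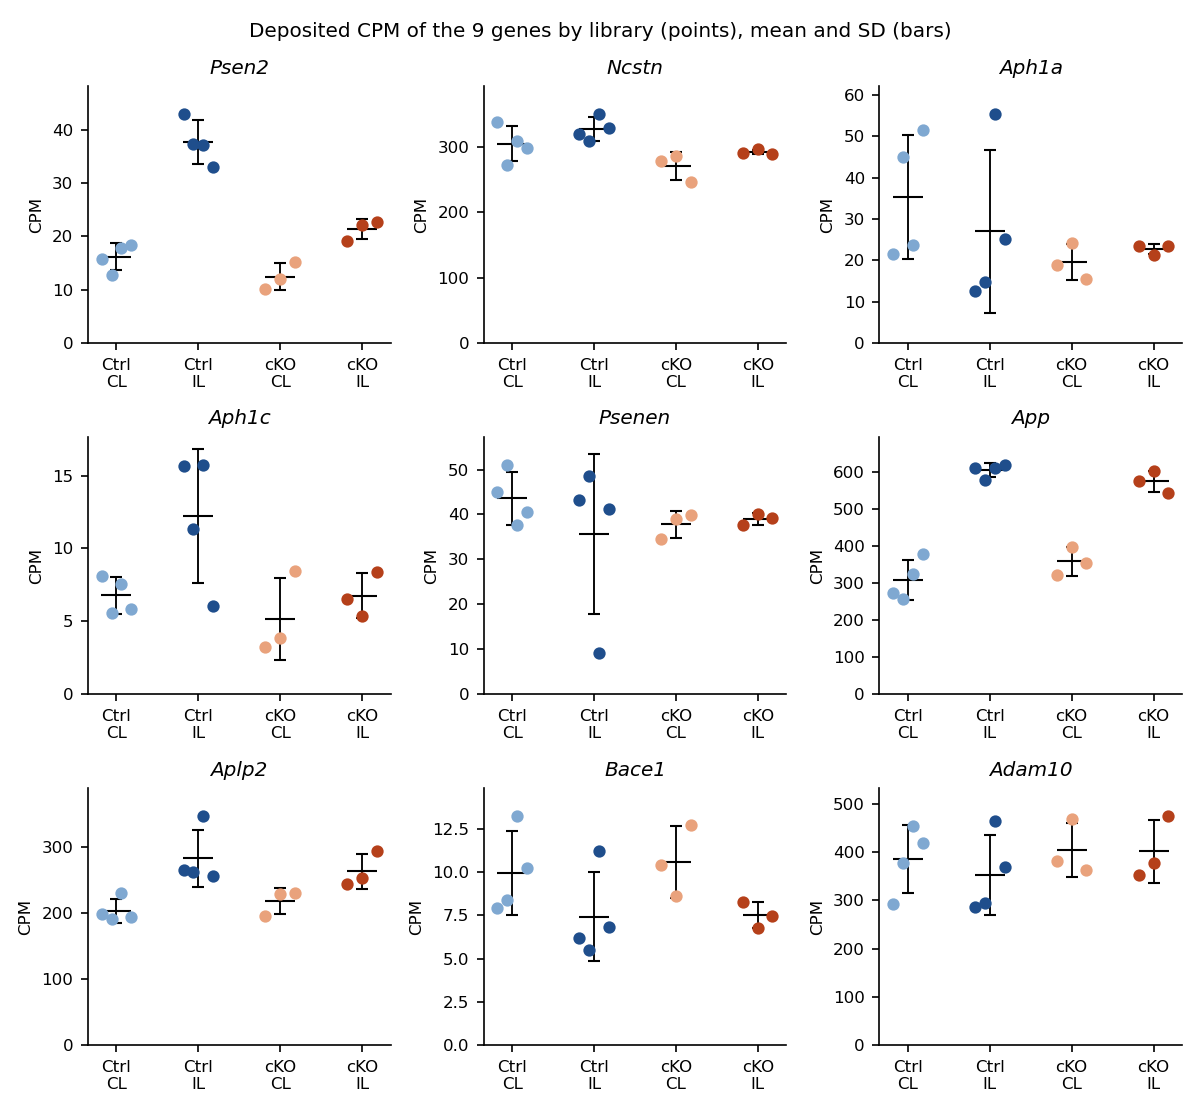
Deposited CPM (y axis, from 0) of the 9 genes in the 4 groups (x axis), 1 point per library in order of mouse number, with bars for the mean and SD. *Psen2* and *App* sit higher in all IL than in all CL libraries of a genotype, and the cKO IL libraries of *Psen2* (19.2 to 22.7 CPM) lie below those of Ctrl IL (33.0 to 43.0 CPM).

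Between the IL and CL hemispheres, *Psen2* and *App* rose in both genotypes, and *Aplp2* rose in cKO. In Ctrl 2 of the 9 genes were called, both higher, where 6.65% of the 16376 genes tested were called and 3.68% were called higher. In cKO 3 of the 9 were called, all higher, where 22.3% of 16756 genes were called and 12.7% were called higher. These fits did not pair the hemispheres of a mouse. With the mouse as a fixed block 4 of the 9 were called in Ctrl, *Aplp2* and *Aph1c* being added, and 2 in cKO, without *Aplp2*, where 20.5% and 13.6% of all genes were called. In cKO that fit held only the 2 mice with both hemispheres. Calls required a limma adjusted p of at most 0.05 together with a 1.2-fold difference or more. The median log2 fold change of the 9 was 0.18 in Ctrl and 0.30 in cKO, against -0.04 and 0.02 over all genes tested. The groups did not overlap for 3 of the 9 in Ctrl, all higher in IL (6.26% of all genes), and for 4 higher (18.1%) and 1 lower (24.3%) in cKO. The study itself names *Psen2* from these libraries, as triggered by TBI in Ctrl and decreased in cKO. The *Psen2* values are thus not independent evidence for the pathway.

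*Psen2* was at 15.8, 12.8, 17.8 and 18.3 CPM in the CL hemispheres of Ctrl mice 3541, 3545, 3546 and 3551, and at 43.0, 37.3, 37.1 and 33.0 CPM in their IL hemispheres. In cKO it was at 10.2, 12.1 and 15.2 CPM in the CL hemispheres of mice 788, 791 and 3592, and at 19.2, 22.1 and 22.7 CPM in the IL hemispheres of mice 784, 791 and 3592. Every IL library was above every CL library, also across the genotypes. Within a mouse, the IL to CL fold was 2.72, 2.92, 2.09 and 1.80 in Ctrl and 1.83 and 1.49 in cKO. On the log2 scale the difference was 1.25 (SE 0.19, limma adjusted p = 0.00417) in Ctrl and 0.82 (SE 0.15, limma adjusted p = 0.00878) in cKO. The call held in all 8 Ctrl and all 6 cKO fits that left out a library. Beside this, 5 of 5 microglia markers were called lower in IL in each genotype, where 2.97% of all genes were called lower in Ctrl and 9.55% in cKO. Of the monocyte markers 3 of 6 were called higher, where 3.68% and 12.7% of all genes were called higher. The summed dissociation-response genes were lower in every IL library, as given above. The part of these markers and genes in the *Psen2* difference was not tested.

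*Psen2* in cKO IL was below Ctrl IL in every library, with a log2 fold change of -0.77 (95% interval -1.17 to -0.38) that was not called (limma adjusted p = 0.132). The study, by its own test at the same thresholds, reports *Psen2* as significantly decreased in cKO, so this outcome differs from its call. It also presents qPCR of *Psen2* in mice of both sexes as backing its sequencing result. Of the 9 genes, 0 were called between genotypes in either hemisphere by limma, where 0.658% of 16873 genes were called in IL and 0.875% of 16569 in CL, and at an unadjusted p under 0.05 there was 1 in each, *Psen2* in IL and *Aph1a* in CL, where 8.93% and 9.79% of all genes were under it. The *Psen2* difference in IL passed without the Ctrl IL library of mouse 3546 (log2 fold change -0.84, adjusted p = 0.0324) and with the mouse as a random effect over all 14 libraries (-0.81, adjusted p = 0.0430), where 1% of genes were called, and in no other fit (adjusted p up to 0.504). In CL the groups overlapped and the log2 fold change was -0.36 (95% interval -0.79 to 0.07, limma adjusted p = 0.592). The interaction, the genotype difference in IL less that in CL, was -0.43 (95% interval -0.95 to 0.09, limma adjusted p = 1), so a larger difference in IL was not shown. By limma 0 of the 9 had an interaction that was called, as did 0% of all 18475 genes, and 0 of the 9 had an unadjusted p under 0.05, against 2.59% of all genes. A fit that took the mouse as random gave an unadjusted p of 0.0428 for *Psen2* and 0.0427 for *App*, where 6.48% of all genes were under 0.05, and neither passed after adjustment (0.7503 and 0.749). These comparisons share their libraries with those between hemispheres.

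The other subunits of gamma-secretase did not pass the unpaired test between hemispheres. With the mouse as a block, *Aph1c* and *Aph1b* passed in Ctrl, as given below. *Ncstn* lay between 246 and 351 CPM in all libraries, with log2 fold changes of 0.18 (95% interval -0.15 to 0.50) in Ctrl and 0.20 (-0.06 to 0.45) in cKO. In IL each cKO library (290 to 296 CPM) was below each Ctrl library (308 to 351 CPM), the difference being -0.15 on the log2 scale (95% interval -0.39 to 0.10, limma adjusted p = 0.812). This makes 2 of the 9 genes, with *Psen2*, whose IL groups did not overlap with cKO lower, against 5.48% of all genes. *Ncstn* is one of 2 members on chromosome 1, where it spans 172066013 to 172082795 of GRCm38.

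*Psenen* was at 45.1, 51.1, 37.6 and 40.6 CPM in Ctrl CL and at 43.3, 48.5, 9.22 and 41.2 CPM in Ctrl IL. In cKO the 6 libraries lay between 34.5 and 40.2 CPM. The single low value, in the Ctrl IL library of mouse 3546, set the log2 fold change of -0.43 in Ctrl, which was 0.16 without that library. *Psenen* is short, with 1275 bases of exon, and within Ctrl IL the library is the one with the fewest reads of short genes relative to long ones. The part of transcript length in this value was not tested.

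*Aph1a* ranged over 12.6 to 55.5 CPM and varied widely within Ctrl. In Ctrl CL it was at 21.6, 44.9, 23.6 and 51.5 CPM and in Ctrl IL at 12.6, 14.7, 55.5 and 25.2 CPM for mice 3541, 3545, 3546 and 3551. The IL to CL fold was 0.59, 0.33 and 0.49 in 3 Ctrl mice and 2.35 in mouse 3546. The log2 fold change was -0.45 (95% interval -1.33 to 0.44, limma adjusted p = 0.598) with all mice and -0.998 (limma adjusted p = 0.0665) without both libraries of mouse 3546, an alternative chosen after seeing the data. In cKO, *Aph1a* was at 15.6 to 24.1 CPM in CL and 21.2 to 23.4 CPM in IL, a log2 fold change of 0.30 (95% interval -0.07 to 0.67). Exons of *Car14* on the opposite strand cover 445 bases, or 12.9%, of the *Aph1a* exons, and reads there could count for either gene since the sources used here do not state a strand setting for the counting.

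*Aph1c* was at 8.13, 5.55, 7.58 and 5.86 CPM in Ctrl CL and at 15.7, 11.4, 15.8 and 6.08 CPM in Ctrl IL. It was at 3.25, 3.87 and 8.42 CPM in cKO CL and at 6.50, 5.37 and 8.42 CPM in cKO IL. In Ctrl, mice 3541, 3545 and 3546 had about 2-fold more in IL (1.93, 2.05 and 2.08) and mouse 3551 did not (1.04). The log2 fold change of 0.77 in Ctrl was not called (95% interval 0.05 to 1.49, limma adjusted p = 0.202), but passed with the mouse as a block (limma adjusted p = 0.0311, where 20.5% of genes were called) and without the Ctrl IL library of mouse 3551 (0.0456). With the mouse as a random effect it passed too (0.0158, where 23% of genes were called). In cKO it was 0.47 (95% interval -0.19 to 1.13, limma adjusted p = 0.273), and 0.81 without the cKO CL library of mouse 3592 (0.0203).

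Reads from part of *Aph1c* could count for *Aph1b*, its tandem copy, and how far this touched the counts was not tested. Over 774 aligned columns of coding sequence, coding transcripts of *Aph1b* and *Aph1c* were 95.9% identical, and 18.4% of the 50-base windows of *Aph1c* also occur in *Aph1b*. A stretch of exon 1 of each is shown because it differs most among the 60-base stretches of the aligned coding sequence. The 11 differing positions are in capitals, and exon sequence outside the coding alignment was not searched. It lies at chr9:66795302-66795361 for *Aph1b* and at chr9:66834535-66834594 for *Aph1c*, both on the minus strand of GRCm38 and within coding sequence.
*Aph1b*: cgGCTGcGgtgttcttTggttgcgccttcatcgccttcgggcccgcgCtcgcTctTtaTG
*Aph1c*: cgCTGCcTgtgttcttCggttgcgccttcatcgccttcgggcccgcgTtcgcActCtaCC
Summed over both genes, Ctrl levels were 13.01 ± 2.68 CPM in CL and 15.9 ± 5.55 CPM in IL (SD, n = 4), and cKO levels were 8.82 ± 3.50 CPM in CL and 9.93 ± 1.72 CPM in IL (SD, n = 3). None of the 4 differences of the summed log2 level passed, the nearest being -0.56 between genotypes in CL (two-sided exact permutation p = 0.114, and 0.4 after adjustment over the 8 tests of this sum and of the sheddase ratio). Before adjustment, the smallest p possible was 0.1 between hemispheres in cKO, where the test could not pass, and 0.0286 in the other comparisons. *Aph1b* alone was lower in Ctrl IL (3.63 ± 1.499 CPM) than in Ctrl CL (6.23 ± 1.85 CPM, SD, n = 4), opposite to *Aph1c* and not called (limma adjusted p = 0.206, and 0.0444 with the mouse as a block).

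Of the substrates among the 9, *App* was called in both genotypes and *Aplp2* in cKO. *App*, the amyloid precursor protein, was at 274, 258, 323 and 378 CPM in Ctrl CL and at 611, 578, 609 and 620 CPM in Ctrl IL. It was at 322, 398 and 355 CPM in cKO CL and at 576, 602 and 544 CPM in cKO IL. All 7 IL libraries lay above all 7 CL libraries, and the Ctrl IL values were close together, with an SD of 18.3 CPM. On the log2 scale *App* rose by 1.06 (SE 0.14, limma adjusted p = 0.00241) in Ctrl and 0.77 (SE 0.12, limma adjusted p = 0.00526) in cKO, and the call held in all 8 Ctrl and all 6 cKO fits that left out a library. *Gfap* was also called higher in both genotypes, as given above, and its part and that of other cell types in this rise was not tested. Within a mouse the IL to CL fold was 1.64 to 2.24 in Ctrl and 1.52 and 1.53 in cKO. Between genotypes, the groups overlapped in both hemispheres, with log2 fold changes of -0.06 (95% interval -0.37 to 0.24) in IL and 0.22 (-0.11 to 0.55) in CL, and the interaction was -0.29 (-0.68 to 0.09). Hence, for *App* a difference between genotypes beyond 0.37 lower or 0.24 higher in IL lies outside the 95% interval.

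*Aplp2*, the amyloid precursor-like protein 2, was at 199, 191, 230 and 193 CPM in Ctrl CL and at 264, 262, 347 and 256 CPM in Ctrl IL. It was at 195, 228 and 230 CPM in cKO CL and at 244, 252 and 293 CPM in cKO IL. In each genotype every IL library was above every CL library, and the highest value was again in the IL library of Ctrl mouse 3546. The log2 fold change was 0.54 (SE 0.14) in Ctrl, just short of a call (limma adjusted p = 0.0538), and 0.35 (SE 0.09) in cKO, where it was called (limma adjusted p = 0.0308). With the mouse as a block the calls changed places, with an adjusted p of 0.00317 in Ctrl and 0.113 in cKO. The calls also moved with scaling, filter and joint fitting: beside the fits that left out a library, *Aplp2* was called in 6 of 11 other fits in Ctrl (adjusted p from 0.000109 to 0.110) and in 6 of 10 in cKO (0.0168 to 0.113). Of the 8 Ctrl fits that left out a library, *Aplp2* was called in 1 (without the IL library of mouse 3551). In cKO it kept its call in 1 of the 6 fits that left out a library (without the CL library of mouse 3592), with adjusted p up to 0.0987 in the others. All 6 mice with both hemispheres had more in IL, by 1.33- to 1.51-fold in Ctrl and by 1.10- and 1.28-fold in cKO.

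The sheddases did not pass in any comparison. *Bace1*, the beta-secretase, was at 7.94, 8.38, 13.3 and 10.2 CPM in Ctrl CL and at 6.19, 5.49, 11.2 and 6.84 CPM in Ctrl IL. It was at 10.4, 8.60 and 12.7 CPM in cKO CL and at 8.28, 6.79 and 7.46 CPM in cKO IL. All 6 mice with both hemispheres had less in IL, at 0.59- to 0.84-fold of CL, and the log2 fold changes of -0.33 in Ctrl and -0.36 in cKO had 95% intervals of -0.80 to 0.13 and -0.76 to 0.04 (limma adjusted p = 0.421 and 0.176). *Bace1* exons overlap those of *Rnf214* on the opposite strand over 975 bases (15.4%). *Adam10*, the main alpha-secretase, lay between 286 and 476 CPM, and its IL and CL groups overlapped in both genotypes, with log2 fold changes of -0.06 (95% interval -0.38 to 0.26) and 0.07 (-0.23 to 0.38). Per kb of exon, the level of *Adam10* exceeded that of *Bace1* 50.8-fold in Ctrl CL, 63.1-fold in Ctrl IL, 51.5-fold in cKO CL and 69.8-fold in cKO IL, as means over libraries, and the ratio was higher in IL in all 6 mice with both hemispheres. The log2 ratio of *Bace1* to *Adam10* differed by -0.31 between IL and CL in Ctrl (exact permutation p = 0.0571, adjusted 0.4) and by -0.47 in cKO (exact permutation p = 0.200), and neither passed. The smallest p that this permutation allows is 0.0286 in Ctrl and 0.1 in cKO, so the cKO test could not pass. Within mice the differences were -0.31 over 4 Ctrl mice and -0.60 over 2 cKO mice, with exact sign-flip p = 0.125 and 0.5, the smallest that 4 and 2 pairs allow. The Ctrl mice lay between -0.40 and -0.25, whereas the cKO value rested on mouse 3592 (-1.16), mouse 791 being at -0.032.

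**Figure D2:**
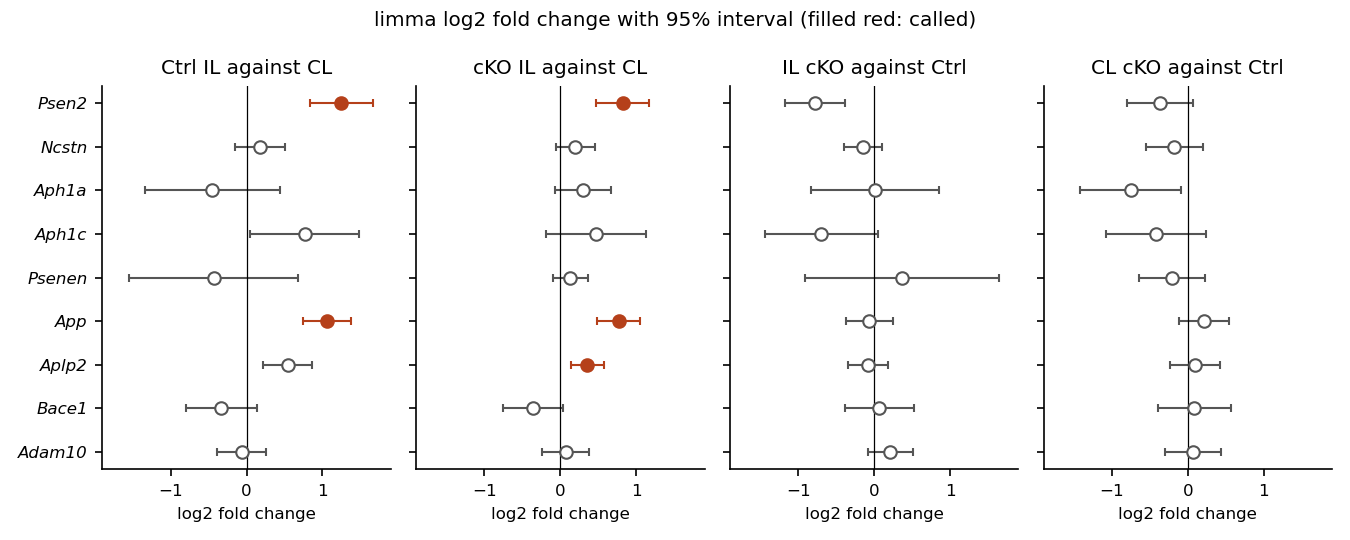
log2 fold changes from limma (x axis) with their 95% intervals for the 9 genes (rows) in the 4 comparisons (panels), filled red where called. *Psen2* and *App* are called between hemispheres in both genotypes and *Aplp2* in cKO only by this rule, and no gene is called between genotypes.

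Around the 9 genes, the other genes of the pathway were read from a list of 61, of which 57 were tested in Ctrl and 56 in cKO. Between hemispheres, 9 rose and 1 fell in Ctrl (10 of 57, with 6.65% of all genes called, 3.68% higher and 2.97% lower), and 11 rose and 6 fell in cKO (17 of 56, with 22.3% of all genes called, 12.7% higher and 9.55% lower). The median log2 fold change of the list was 0.04 in Ctrl and 0.21 in cKO. In both genotypes 8 were called, which is 8 of the 10 in Ctrl and 8 of the 17 in cKO, each in the same direction. That is 14.3% of the 56 tested in both, where 885 of 15862 genes in all (5.58%) were called in both, also each in the same direction, or 81.9% of the Ctrl and 24% of the cKO calls. Between genotypes limma called 0 of them, with 6 of 56 in IL and 7 of 57 in CL at an unadjusted p under 0.05, against 8.93% and 9.79% of all genes. With the mouse as a fixed block, 24 of 57 were called between hemispheres in Ctrl (15 higher and 9 lower, with 20.5% of all genes called) and 9 of 57 in cKO (6 higher and 3 lower, with 13.6% called). The Ctrl calls were then the 10 and 14 more. A random effect of the mouse over all 14 libraries also gave 24 in Ctrl and gave 16 in cKO, of 58, with 23% and 16.8% of all genes called.

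Among other sheddases and their regulators, *Adam9*, which also cuts APP, rose from 101 to 221 CPM in Ctrl and from 109 to 221 CPM in cKO (log2 fold changes of 1.21 and 1.10). *Furin*, the convertase that activates the sheddases, rose from 39.9 to 91.5 CPM and from 44.2 to 88.3 CPM. *Rhbdf2*, which brings ADAM17 to the cell surface, rose by 1.24 and 1.19 on the log2 scale, and its relative *Rhbdf1* fell in cKO by 0.58. Of the tetraspanins that escort ADAM10, *Tspan17* rose by 1.01 and 0.92, whereas *Tspan14*, far more abundant at 303 to 473 CPM as group means, fell by 0.48 in cKO. *Tspan14* in Ctrl (-0.53) missed the call with a limma adjusted p of 0.0521, and was called in 6 of 11 other fits beside those that left out a library, among them that with the mouse as a fixed block (0.00557). Of the 4 other sheddases 1 was called in each genotype, higher. Of the 9 regulators 3 were called higher in Ctrl, and 3 higher and 2 lower in cKO, where 6.65% and 22.3% of all genes were called. With the mouse as a fixed block, cKO lost the falls of *Rhbdf1* and *Tspan14* (adjusted p = 0.0738 and 0.0763) and the rise of *Tspan17* (0.0753). In Ctrl that block called *Rhbdf1* (0.0237) and *Tspan14* lower. *Adam10* itself was not called.

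Among the substrates of gamma-secretase, *Cd44*, a hyaluronan receptor, rose by 1.91 and 2.16 on the log2 scale in Ctrl and cKO, and the Notch ligand *Jag1* by 2.30 and 2.01. These were the 2 called of the 9 substrates tested in each genotype, where 6.65% of all genes were called in Ctrl and 22.3% in cKO, so that the count in cKO was at the background. *Trem2*, a lipid receptor of microglia, averaged 1420 CPM in Ctrl CL and 890 CPM in Ctrl IL, with a log2 fold change of -0.61 that was not called (limma adjusted p = 0.186) but passed with the mouse as a fixed block (0.0160), and 1404 and 1016 CPM in cKO (-0.37, limma adjusted p = 0.184). *Csf1r*, the receptor on which microglia depend, had log2 fold changes of -0.45 and -0.51, also not called (limma adjusted p = 0.290 and 0.218), and those of *Notch1* to *Notch4* lay between -0.53 and 0.17, with 0 of 4 called. Of the Notch targets, *Nrarp*, a feedback inhibitor of Notch signaling, fell from 22.0 to 7.83 CPM in Ctrl and from 31.5 to 7.53 CPM in cKO. *Rbpj*, the transcription factor of the pathway, rose in cKO by 0.39 on the log2 scale. Of the modulators of gamma-secretase, *Ifitm3* rose in cKO from 58.2 to 216 CPM and *Tmed10*, a cargo receptor, by 0.42 on the log2 scale. *Ifitm3* in Ctrl was at 71.9 CPM in CL and 110 CPM in IL, with a log2 fold change of 0.59 that was not called (limma adjusted p = 0.687). *Hm13*, the signal peptide peptidase related to presenilins, rose in cKO by 0.35, and its relative *Sppl3* fell by 0.58.

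Of the adaptors and sorting receptors of APP, *Gga2* rose by 0.71 and 0.61 on the log2 scale in Ctrl and cKO. *Sorl1*, which carries APP away from the endosome, rose in Ctrl from 47.9 to 88.5 CPM, and in cKO its log2 fold change of 0.84 was not called (limma adjusted p = 0.0827). *Apbb1* and *Apba1*, adaptors of the APP tail, fell in cKO by 0.88 and 0.73. *Apoe*, the lipid carrier that binds amyloid-beta, rose in Ctrl from 4389 to 13994 CPM, and in cKO it was at 5504 CPM in CL and 9692 CPM in IL (log2 fold change 0.97, limma adjusted p = 0.0923). With the mouse as a fixed block in cKO, calls were lost for *Hm13*, *Rhbdf1*, *Tmed10*, *Apba1*, *Tspan17*, *Sppl3*, *Gga2*, *Tspan14* and *Rbpj*, with adjusted p from 0.0502 to 0.135, and a call was gained for *Clu*, a carrier of amyloid-beta (log2 fold change -0.55, adjusted p = 0.0476, against -0.0061 and 0.992 without the block). In Ctrl the same block added calls for *Hm13* (log2 fold change 0.34, adjusted p = 0.0443), *Sppl3* (-0.35, 0.0270), *Rhbdf1* (-0.50, 0.0237), *Rbpj* (0.34, 0.0249), *Apbb1* (-0.77, 0.0116) and *Tspan14*, each with the sign it had in cKO. It also added *Trem2*, *Tspan33*, *Hes1* and *Aph1b*, lower in IL, and *Vps35*, *Gga1*, *Lrp1* and *Ece1*, higher in IL, with adjusted p from 0.00408 to 0.0444. When libraries were left out in turn, the Ctrl calls of *Sorl1* and *Apoe* held in 3 of 8 fits, that of *Tspan17* in 2 and that of *Gga2* in 1, with adjusted p up to 0.149, and the other 6 held in all 8. In cKO 7 of the 17 calls held in all 6 such fits, and the other 10 in 1 to 4 of them. *Adam9*, *Cd44*, *Furin*, *Rhbdf2* and *Nrarp* kept their calls in all 20 other fits in Ctrl and all 17 in cKO, the fold threshold of 2 aside.

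**Figure D3:**
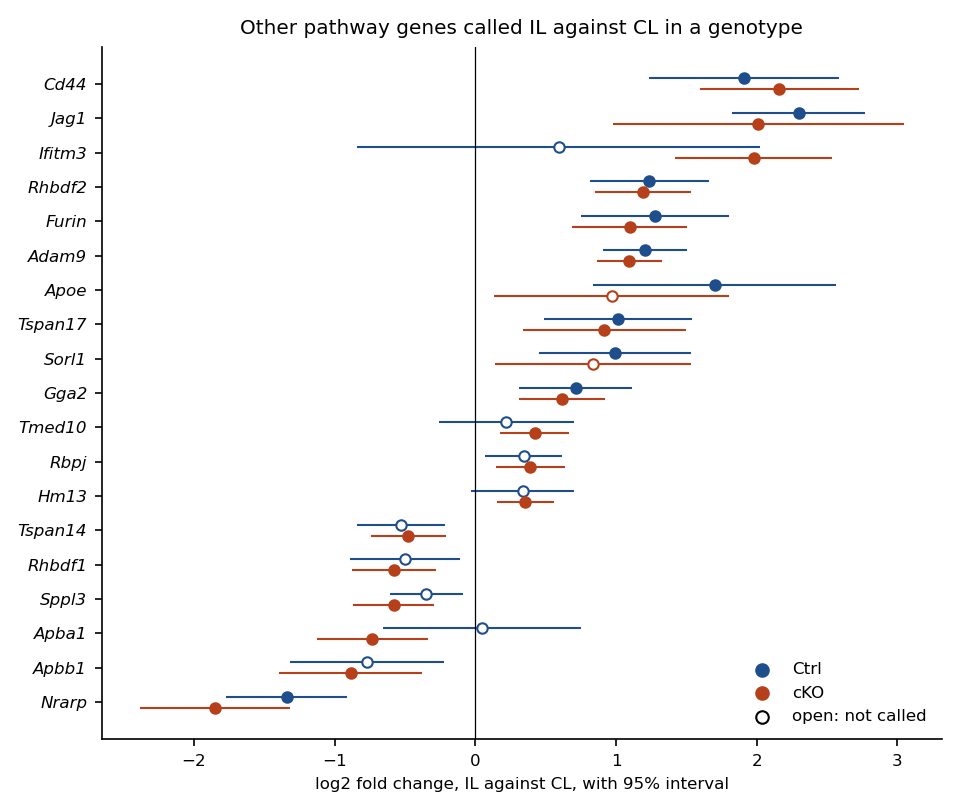
log2 fold changes between IL and CL (x axis, with 95% intervals) of the 19 other pathway genes (rows) that were called in Ctrl (blue) or cKO (red), with open points where not called. *Cd44*, *Jag1*, *Rhbdf2*, *Furin*, *Adam9*, *Tspan17* and *Gga2* lie to the right and *Nrarp* to the left of 0 in both genotypes.

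The genes with the pattern most like that of *Psen2* were sought by the smallest root mean square difference of z scores over the 14 libraries, among 10623 genes with a mean of at least 5 CPM. They were *Ptger2*, a prostaglandin E2 receptor (0.223), *Rnf128*, a ubiquitin ligase (0.269), *Nlrc3* (0.286), *Cd5l*, a secreted macrophage protein (0.292), and *Ugt1a6a*, a glucuronosyltransferase (0.296). In each, the mean of Ctrl IL was highest and that of cKO IL next, as for *Psen2*, which follows largely from how they were chosen. *Rnf128*, for example, averaged 64.8 CPM in Ctrl CL, 172 in Ctrl IL, 50.7 in cKO CL and 94.0 in cKO IL, and *Cd5l* averaged 2.36, 118, 2.49 and 28.1 CPM. Of the other 8 genes, *App*, *Aplp2* and *Aph1c* were the nearest to *Psen2*, at ranks 284, 295 and 315, and *Bace1* was the farthest, at rank 9540.

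Genes next to the 9 on the chromosome were counted by their calls between the genotypes. *Psen2*, at 180227004 to 180263438 on chromosome 1 of GRCm38, had 0 of 27 neighbours called within 1 Mb of its start in IL by limma and 0 of 28 in CL, with 6 in each at an unadjusted p under 0.05, a level that 8.93% and 9.79% of all genes reached. *Ncstn*, also on chromosome 1, had 4 of 50 called in IL and 3 of 50 in CL, with 18 and 17 at an unadjusted p under 0.05. *Slamf1*, *Usf1* and *F11r* were lower in cKO in both hemispheres, with *F11r* averaging 386 CPM in Ctrl against 181 CPM in cKO in IL, and *Kcnj10* was higher in IL (1.36 and 6.51 CPM). *Aph1a*, on chromosome 3, had 4 of 83 called in IL, of which *Fcgr1* and *Gm42743* were higher and *Txnip* and *Hist2h2be* lower in cKO, and 1 of 81 in CL (*Gm42743*), with 19 and 15 at an unadjusted p under 0.05. *Aph1c* had 0 of 19 in IL and 1 of 19 in CL (*Lactb*, lower in cKO), with 2 and 3 at an unadjusted p under 0.05. The other 5 genes had 0 called by limma, with 1 to 9 neighbours each in IL and 0 to 9 in CL at an unadjusted p under 0.05. Over all 9 windows, 8 of 306 neighbours were called in IL and 5 of 303 in CL, or 2.61% and 1.65%, against 0.658% and 0.875% of all genes.

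**Figure D4:**
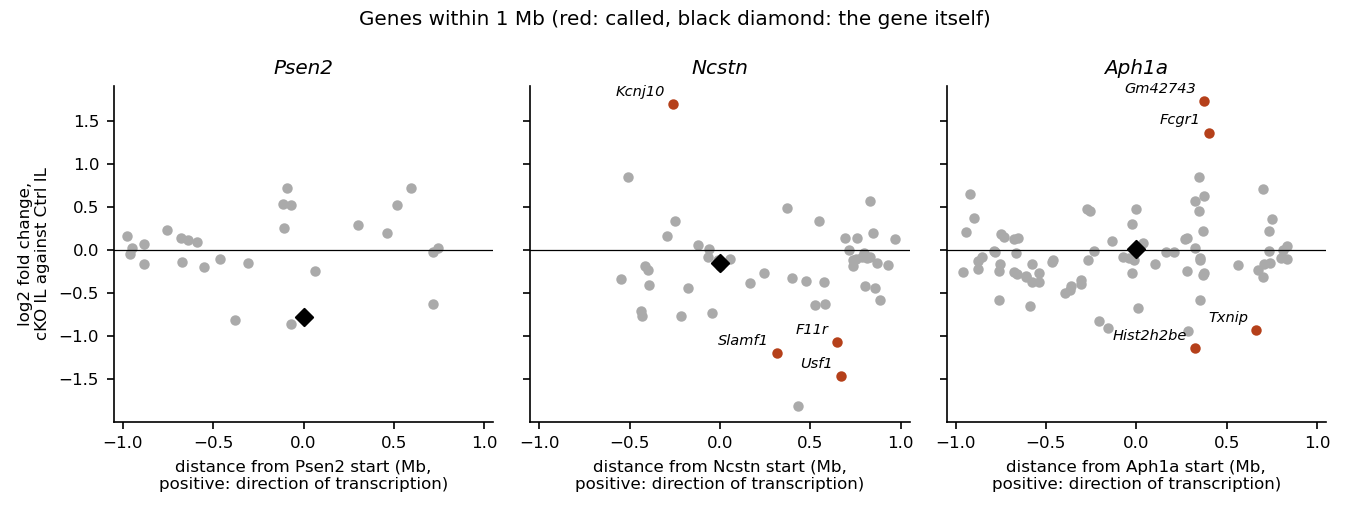
log2 fold change of cKO IL against Ctrl IL (y axis) of genes within 1 Mb of the starts of *Psen2*, *Ncstn* and *Aph1a* (panels), by distance in Mb along the direction of transcription (x axis), red where called and with a black diamond for the gene itself. The 4 called genes near *Ncstn* and the 4 near *Aph1a* are named, and none is called near *Psen2*.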

How the data were processed

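CD11b+ cells were sorted by MACS, and Smart Seq v4 libraries were paired-end sequenced on a NovaSeq and, per the labels, mapped with STAR to mm10 and processed in Partek 8.0. The quantifier is not given in the sources used here. The authors deposited CPM under the name of counts: each library sums to 1e+06. Of values under 100 reads, 78.3% to 83.7% were whole multiples of 1 read within a tolerance of 0.03, too few for count tests, so limma was used. The authors' comparison tables hold ratios, fold changes, p-values and group means and were not used.

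CPM were scaled by the trimmed mean of M-values (unweighted, 30% of M and 5% of A trimmed) and fitted as log2(CPM + 1) with limma 3.58.1 in R 4.3.3 (empirical Bayes with trend), each comparison on its own libraries and the interaction on all 14. A fold change on this scale understates that of low genes. Genes entered with the CPM of 10 reads at median depth in no fewer libraries than the size of the smaller group and with 15 reads in total, and p was adjusted by Benjamini-Hochberg over all genes tested. The fit was checked on simulated data. Ratios were tested by two-sided exact permutation over libraries in Python 3.11.15. Gene models were GENCODE M21 (GRCm38) and promoters RefSeq GRCm38.p6, which held 8 of the 9 genes.

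The members, lists and tests were chosen with earlier results of these data known. Named were the 9 genes, genes of 10 pathway lists (at least those called), the 5 genes most like *Psen2* and called neighbours within 1 Mb. Some genes of these lists are not reported here. The mouse numbers come from the labels. Hemispheres of the same mouse deviated together from their group means (r from 0.182 to 0.607, n = 6), against -0.535 to 0.502 for 19 pairs of different mice. cKO numbers 784 and 788 were taken as different mice. Alternatives were pseudocounts, scalings, filters, a joint fit, the mouse as a block, thresholds and leaving out each library.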

Additional observations from a re-analysis of the deposited data

Results flagged for a closer look

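*Aplp2* in Ctrl IL was at 347 CPM in mouse 3546, far from the other 3 libraries of the group (256 to 264 CPM), with a gap of 0.911 of the whole range. By Dixon's test it was the only value past the 95% critical value among 22 groups of 4 libraries, for the 9 genes and for 1 ratio and 1 sum in Ctrl CL and Ctrl IL, and chance alone gives about 1 in 20. *Psenen* in Ctrl IL, low in the same library, and *Aplp2* in Ctrl CL came near it, with gaps of 0.813 and 0.807 of the range. The library was also the shallowest and, within its group, the one with the most reads of long relative to short genes, and the part of either in the value was not tested. Without it the log2 fold change of *Aplp2* between IL and CL in Ctrl was 0.50 (limma adjusted p = 0.0892), against 0.54 (limma adjusted p = 0.0538) with it.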

How the results depend on the processing

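The calls of *Psen2* and *App* between hemispheres held in every fit run, apart from those of cKO with a fold threshold of 2, which left 0 of the 9 called. With the mouse as a fixed block (replicate block), or as a random effect over all 14 libraries, 4 of the 9 were called between IL and CL in Ctrl, *Aplp2* and *Aph1c* being added, and the random effect gave 1 call between genotypes in IL, *Psen2*. Among the 9 genes the block changed no other call except that of *Aplp2* in cKO. Leaving out a library in turn gave 2 to 4 calls in Ctrl (4 without the IL library of mouse 3551) and 0 to 1 between genotypes in IL (1 without the Ctrl IL library of mouse 3546). *Aph1b* and *Aph1c* summed differed by 0.13 to 0.56 between IL and CL in Ctrl (exact permutation p = 0.0286 without the IL library of mouse 3551), and *Bace1* relative to *Adam10* by -0.19 to 0.28 between genotypes in CL. The cause of these changes was not tested.

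Signs turned only for log2 fold changes near 0 or set by a library, none of them called. *Adam10* was -0.011 in cKO IL against CL on the deposited CPM, *Aph1a* -0.0061 between genotypes in IL on the deposited CPM and -0.012 with upper-quartile scaling, and the interaction of *Ncstn* -0.072 with upper-quartile and -0.040 with median-ratio scaling. *Psenen* in Ctrl was 0.059 without both libraries of mouse 3546, an alternative chosen after seeing the data. Leaving out a library, the IL to CL values ranged from -0.72 to 0.16 for *Psenen* and -0.14 to 0.0017 for *Adam10* in Ctrl and -0.0065 to 0.18 for *Adam10* in cKO. Between genotypes in IL they ranged from -0.22 to 0.36 for *Aph1a*, -0.23 to 0.62 for *Psenen*, -0.13 to 0.023 for *App* and -0.012 to 0.20 for *Bace1*, and in CL from -0.017 to 0.22 for *Bace1* and -0.031 to 0.17 for *Adam10*. The interaction ranged from -0.084 to 0.071 for *Ncstn*, -0.59 to 0.048 for *Aph1c*, -0.046 to 0.82 for *Psenen* and -0.16 to 0.10 for *Bace1*. With 3 or 4 libraries a group and 12.2 M reads in the shallowest, the intervals given with each gene bound what could be seen.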
